A study of Mus musculus with 4 samples.

Results

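The cytosolic ribosomal protein genes are the genes whose products build the large and the small subunit of the ribosome outside mitochondria. They were taken by symbol, as Rpl or Rps followed by a number and at most 1 of the letters a, x, y or l, together with Rplp0, Rplp1, Rplp2 and Rpsa, and symbols with a pseudogene suffix were left out. This gave 81 genes of 27998 in the count tables, 50 of the large and 31 of the small subunit. The choice went by symbol and used no measured value, but it was made with earlier results of these data known. Fau, Rps3a1 and Gnb2l1, which also encode ribosomal proteins, fall outside these symbols and are described apart.

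A ribosome holds its proteins in fixed proportions, and the mRNAs that encode them are among the most abundant of a cell. Many of these mRNAs begin with a short run of C and T called the 5' TOP motif, through which mTOR signalling and the RNA-binding protein Larp1 control their translation and stability. Resting lymphocytes are small cells with few other transcripts and are known for a large ribosomal protein fraction, whereas mature neutrophils are known for little ribosomal content.

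The data were 3' single-cell counts (10x Genomics) of digested lung from male wild-type C57BL/6 mice. The 4 ages gave 1 library each: NB, at 10 days, and 2 M, 10 M and 18 M, at 2, 10 and 18 months. Lung tissue was digested with collagenase D and DNase1, and dead cells were removed. With 1 library per age no test between ages was possible, and age cannot be told apart from the animal and the library, so the values below are given with counting intervals only, which cover counting error and not the spread between mice.

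The tables held 34037 barcodes and 187318121 UMIs (unique molecular identifiers, each standing for 1 captured mRNA), and 28153 barcodes passed the limits on genes, UMIs and mitochondrial share, with 6377, 5537, 7862 and 8377 in order of age. The median cell had 3998.5 to 4308 UMIs per library, and 17 to 28 barcode sequences were shared by any pair of libraries. The 18 M library stood apart. Xist, which is expressed from the inactive X chromosome of female cells, had a UMI in 36.3% of its cells and in 0.0784% to 0.254% of the cells of the other libraries. Y-linked genes had one in 44.1% of 18 M cells and in 71.6% to 76.6% elsewhere, and 4.37% of 18 M cells had both, although all 4 labels read male. Haemoglobin took 4.98% of the UMIs of kept 18 M cells and 1.05% to 1.53% in the others. For the share of UMIs and for a few members the 18 M values are also given apart for cells with Xist and cells with Y-linked UMIs, and other 18 M results rest on the whole library.

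Cells were assigned to 12 classes by marker genes. A cell needed UMIs of at least 2 markers of its class and of at most 1 of any other class. T and B cells were the largest classes, with 1309 to 1848 and 1561 to 3128 cells per library, and fibroblasts numbered 96 to 356. Separate check markers were over 10 times higher than in the remaining cells for 3 of 3 genes in neutrophils, fibroblasts, alveolar type II cells and endothelial cells in every library, and for 2 or 3 of 3 in NK cells. For T cells and B cells 0 of 3 passed that limit, with summed levels of 701 to 917 CPM (UMIs of a gene per 1000000 UMIs) in T cells against 90.2 to 124 in the remaining cells, and of 248 to 427 against 45.6 to 72.0 for B cells. Alveolar macrophages passed with 2 of 3 in NB and 10 M and 0 of 3 in 18 M, and plasma cells with 0 of the 2 measured. Cells left without a class made up 22.2% to 23.9% of NB, 2 M and 10 M and 40.2% of 18 M.

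Over all kept cells the members held 36326924 UMIs. Of the 81, 76 had over 100000 UMIs and 65 stood among the 100 genes with the most UMIs. Rps24, a small subunit protein, led with 1117195 UMIs, followed by Rplp1, an acidic protein of the P stalk that recruits elongation factors, with 884988, and by Rps29 with 841409. Rpl23, of the large subunit, had 789353. At the other end stood the duplicated copies: Rpl10l had 0 UMIs, Rpl3l 262, Rpl39l 306 and Rpl6l 581, and Rps27l, a p53-responsive copy of Rps27, had 28280. Between Rpl15, the lowest remaining member at 131063 UMIs, and Rps24 the levels spanned less than one order of magnitude. Because 3' counting gives 1 UMI per mRNA whatever its length, these levels were not divided by length, but reads shared with processed copies elsewhere in the genome may have been lost or moved, and 5 members overlap another gene on the same strand (Rpl13a, Rpl13, Rpl19, Rpl24 and Rps10).

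The share of a cell's UMIs that came from the members differed several times between classes. Over all kept cells the NB library had 25.5%, the 2 M library 26.5%, the 10 M library 24.7% and the 18 M library 20.1%. T cells had the highest share, at 34.0%, 36.5%, 35.5% and 30.9% from the youngest library to the oldest. B cells followed, at 28.2%, 26.6%, 28.4% and 21.9% in the same order. NK cells had 21.0%, 19.7%, 20.01% and 25.5%. All 3 lymphocyte classes were above every stromal, epithelial and myeloid class of at least 20 cells in each library. Fibroblasts had 15.1%, 13.3%, 14.5% and 13.8%, and alveolar type II cells, the surfactant-making cells of the alveolus, had 10.9%, 12.6%, 11.5% and 14.1%. Neutrophils had 5.16%, 5.56%, 5.81% and 7.64%, the lowest of the classes with at least 20 cells in all 4 libraries. The 198 gated erythroid cells of 18 M had 2.67%, and their median cell had 0.641%.

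**Figure D1:**
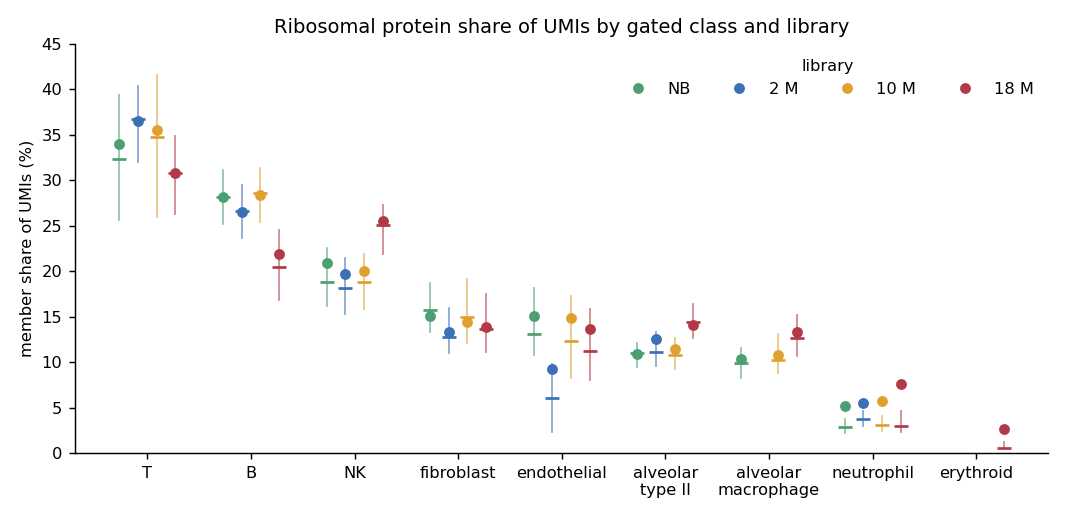
Share of UMIs from the 81 members (y axis, %) by gated class (x axis) and library (colour). Circles are shares of the summed UMIs, short bars the median cell and vertical lines the cell quartiles, for classes of at least 20 cells; T cells sit between 30.9% and 36.5% and neutrophils between 5.16% and 7.64%, with 18 M lowest in T and B cells and highest in NK cells.

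The order of classes was the same over the 4 libraries for most pairs. T cells exceeded B cells by 7.94 ± 1.85 percentage points (SD over the 4 libraries) and were higher in 4 of 4, and T cells exceeded fibroblasts by 20.03 ± 2.67 points in 4 of 4. Fibroblasts exceeded neutrophils by 8.15 ± 1.58 points in 4 of 4. B cells were above NK cells in 3 of 4 libraries, and in 18 M the order turned, with a difference of -3.61 points. Fibroblasts and endothelial cells, at 0.954 ± 2.099 points, did not differ beyond the spread between libraries. An exact two-sided permutation test over 4 paired libraries cannot give a p below 0.125, which was 0.1875 after adjustment over the 9 pairs of classes compared, and the pairs were picked after the shares had been seen.

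Within T cells the share went with the state markers. Cells with at least 2 markers of a list that includes Ccr7, Lef1, Igfbp4 and Dapl1, which mark naive T cells that recirculate through lymphoid tissue, had 40.3%, 37.5%, 40.2% and 32.0% in order of age. Cells with at least 2 of Ccl5, S100a4, S100a6, Nkg7, Gzmk and Id2, which mark effector and memory cells, had 28.7%, 29.4%, 26.7% and 26.3%. Naive-marked cells were higher in 4 of 4 libraries, by 9.71 ± 3.54 points (5.62 to 13.5), with the same smallest permutation p of 0.125. The 18 M library had the smallest gap and the lowest share in its naive-marked cells. Depth differed between the states, with median UMIs of 6134, 6178, 6386 and 4731 in naive-marked cells in order of age. In effector-marked cells they were 4295, 6325.5, 4563 and 5233. What depth did to the gap was not tested. The makeup of the T cell class differed between libraries, with naive-marked cells at 21.4%, 68.9%, 38.0% and 60.3% of it in order of age. Within the naive-marked cells NB and 10 M were above 2 M, while in the T cells as a whole they were below it. T cells with at least 3 of 8 cell cycle markers had 25.4%, 24.4%, 23.5% and 26.0%, from 18, 4, 9 and 87 cells.

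**Figure D2:**
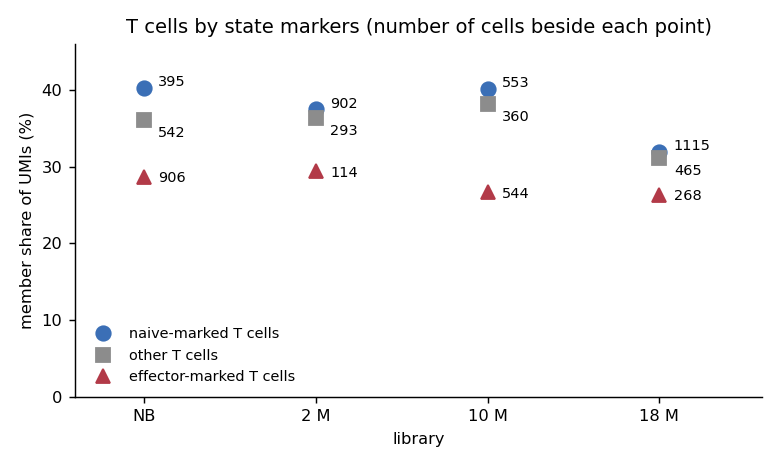
Member share of UMIs (y axis, %) in naive-marked, effector-marked and other T cells of each library (x axis), with the number of cells beside each point. Naive-marked cells lie above effector-marked cells in every library, 40.3% against 28.7% in NB and 32.0% against 26.3% in 18 M.

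The comparisons between ages asked how each library stood against the 2 M library, the young adult, so that all 3 share the 2 M cells. In B cells the 18 M share was 0.824 times that of 2 M (95% exact interval 0.822 to 0.826), while NB was at 1.06 and 10 M at 1.07 times. In T cells 18 M was at 0.846 (0.844 to 0.847), NB at 0.931 and 10 M at 0.974. The quartiles over B cells overlapped little, at 16.9% and 24.6% in 18 M and 23.7% and 29.5% in 2 M. In NK cells the direction was the opposite, with 18 M at 1.30 (1.29 to 1.30) from 102 cells, NB at 1.06 and 10 M at 1.02. The NK gate markers summed to 1317 CPM in these 18 M cells and to 2121 to 2343 CPM in the other libraries. In 18 M 6 of 6 were still over 10 times higher than in the remaining cells. Fibroblasts were slightly above 2 M in all 3 libraries, at 1.13, 1.09 and 1.04 in NB, 10 M and 18 M, but with at least 3 markers per cell the 18 M log2 ratio turned from 0.05 to -0.042. Their expression also differed between libraries. The fibroblast gate markers, which include collagen genes, summed to 59438.5 CPM in 18 M and 17401.9 in 2 M, and the check markers to 6781 and 19362. What this did to the share was not tested.

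The 18 M shares were then compared between the cells of both kinds that made up that library. T cells with Y-linked UMIs and no Xist had 31.2% and those with Xist and no Y-linked UMI 30.5%, and the same split gave 22.1% and 21.9% in B cells, 25.6% and 25.4% in NK cells and 13.9% and 13.7% in fibroblasts. Neutrophils had 8.99% and 10.2% and alveolar macrophages 13.98% and 12.9%, gaps in opposite directions, and alveolar type II cells had 14.1% and 13.97%. Depth per cell also moved with the share. In 2 M T cells it was 32.6% from 2000 to below 4000 UMIs, 36.0% from there to below 8000 and 38.3% at 8000 or more, and in 18 M it was 28.1%, 31.9% and 30.1% in the same bins, so that 18 M was lower in each of them. In fibroblasts it went the other way, from 23.3% under 2000 UMIs to 13.5% at 8000 or more in 10 M.

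Neutrophil, alveolar type II and endothelial values rested on thinner ground. In neutrophils the summed share of 18 M was 1.37 times that of 2 M (1.36 to 1.39), but the median cell had 3.06% in 18 M and 3.77% in 2 M, and without any marker of another class the log2 ratio turned from 0.46 to -0.26. Neutrophils of 8000 UMIs or more had 16.4% in 18 M and 15.7% in NB, against 3.26% and 3.46% from 2000 to below 4000 UMIs. In alveolar type II cells 18 M was at 1.12 (1.11 to 1.13), from 390 cells against 35 in 2 M. Endothelial cells had 15.1%, 9.25%, 14.9% and 13.7% in order of age, so that the 2 M library, with 31 cells and a median of 2891 UMIs, was the one that stood apart. The 19 alveolar macrophages of 2 M were too few for a ratio, and the class had 10.3% in NB, 10.9% in 10 M and 13.3% in 18 M.

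Single members were then compared as CPM, in genes with at least 100 UMIs over both libraries, and a ratio of 1.5 in either direction was the limit of size. Of 77 members compared in T cells, 7 were at least 1.5-fold lower in 18 M than in 2 M and 1 was higher, where 4.24% and 18.7% of all genes compared lay past the limit. The median member was at -0.24 (log2) and the median of all genes at 0.20. In B cells 7 of 77 were lower and 0 higher, against 7.48% and 18.8% of all genes, with medians of -0.31 and 0.16. Per UMI of the total without members, mitochondrial and haemoglobin genes, the lower members numbered 17 in T cells and 16 in B cells, and against 10 M they numbered 21 in B cells. The share of all genes past the limit under these other settings is not given here, so these counts have no background beside them. Taking the members out of the total by itself lowers their ratios where their share is lower. In T and B cells the median member was below 2 M while the median gene was above it. CPM has a fixed total, so a lower member share by itself raises the other genes, and this contrast partly restates the share. In NK cells 16 of 77 were higher and 0 lower (8.26% and 13.7% of all genes), with medians of 0.34 and -0.06.

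In neutrophils 30 of 77 members were higher in 18 M, where 25.9% of all genes compared were. Fibroblasts had 2 of 77 higher and 0 lower, against 12% and 13% of all genes, and medians of 0.06 and -0.02. Alveolar type II cells had 2 of 77 higher, against 19.5%. Endothelial cells had 57 of 76 higher in NB (19.4% of all genes), 55 of 77 in 10 M (19.9%) and 35 of 76 in 18 M (20.6%), which again set the shallow 2 M cells against each other library. Against 10 M in place of 2 M, 0 of the members were higher in 18 M and 1 was lower. The share of all genes past the limit against 10 M is not given here, so these counts have no background beside them. In NB T cells 2 of 77 were lower and 0 higher (5.7% and 9.57% of all genes), with Rpl31 the lowest at 0.657.

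Over all kept cells, whose makeup by class differs between libraries, 1 of 79 members was at least 1.5-fold higher in 10 M (10.6% of all genes). In 18 M 17 of 80 were lower (9.22% of all genes) and 3 were higher (21%). Within the classes other than endothelial cells no member passed the limit in the remaining NB and 10 M comparisons, where some genes of the whole table did. The share of all genes past it was 3.73% higher and 3.65% lower in 10 M T cells. In B cells it was 3.14% and 3.78% in NB and 0.69% and 1.94% in 10 M, and in NK cells 2.51% and 8.09%, then 0.981% and 2.2%. In neutrophils it was 4.99% and 13% in NB and 2.21% and 6.35% in 10 M. Alveolar type II cells had 3.64% and 10.6%, then 2.9% and 3.45%, and fibroblasts 7.51% and 7.96%, then 8.89% and 5.98%. The median member stood at 0.19 and 0.13 (log2) in NB and 10 M fibroblasts, at 0.10 and 0.11 in B cells and at -0.08 and -0.03 in T cells, and in the lower direction 0 of the members passed in 18 M neutrophils (6.89% of all genes), alveolar type II cells (5.91%) and endothelial cells (19.3%).

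**Figure D3:**
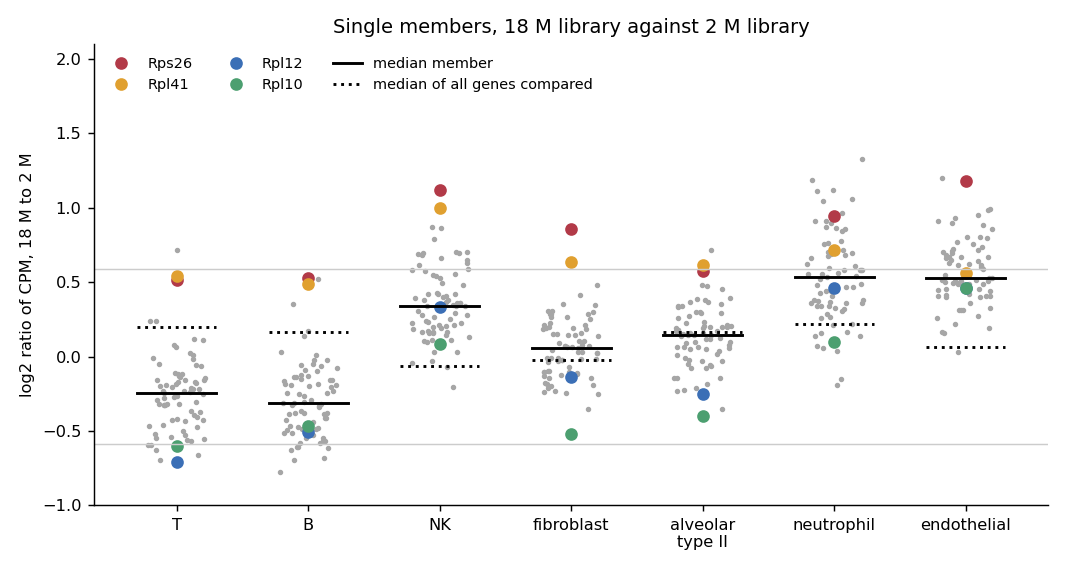
Log2 ratio of CPM, 18 M to 2 M (y axis), of each member compared (points) by class (x axis), with 4 members in colour, the median member as a solid bar, the median of all genes compared as a dotted bar and grey lines at the limit of 1.5-fold. The members lie below the gene median in T and B cells (-0.24 and -0.31 against 0.20 and 0.16) and above it in NK cells, and Rps26 lies above the median member in every class. CPM has a fixed total, so a change in member share by itself moves the other genes the opposite way.

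The start regions of 6 members described here, picked after their values were seen, are shown because 5' TOP sequence is the feature the family is known to share. RefSeq promoter windows (GRCm38.p6, from 250 bases before to 50 after the start) were found for 60 members, 72 windows in all. A start base C followed by 4 bases of C or T stood at the annotated start of 18.1% of member windows and of 2.51% of all 32851 windows. The letters CTCTTTC on either strand were in 27.8% of member windows and 8.16% of all, and CCGGAAG, the core bound by ETS factors, in 36.1% and 8.86%. Each line gives 10 bases before and 20 from the annotated start, with runs of at least 5 C or T in capitals. Rps27l has a second annotated start in the table, at chr9:66946403-66946432, whose window holds no such run. Annotated starts can lie away from the true one, and a match is only a description. For Rps26, Rpl41, Rpl12 and Rpl38 the GENCODE vM21 gene reaches upstream of the bases shown, for Rpl41 to chr10:128549305. These lines may therefore miss the start in use, and a line without a run does not show that the mRNA lacks one.
Rps26 (chr10:128626487-128626516, minus strand): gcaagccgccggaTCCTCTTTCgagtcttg
Rpl41 (chr10:128549149-128549178, minus strand): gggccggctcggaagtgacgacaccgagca
Rpl38 (chr11:114668570-114668599, plus strand): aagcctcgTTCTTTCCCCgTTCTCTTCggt
Rpl12 (chr2:32961702-32961731, plus strand): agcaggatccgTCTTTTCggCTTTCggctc
Rplp0 (chr5:115559457-115559486, plus strand): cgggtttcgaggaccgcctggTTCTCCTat
Rps27l (chr9:66946076-66946105, plus strand): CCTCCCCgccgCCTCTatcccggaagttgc

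The members did not move as a block. Rps26, a small subunit protein at the mRNA exit channel, had 10.1 UMIs per 1000 member UMIs in NB T cells, 10.9 in 2 M, 9.99 in 10 M and 18.3 in 18 M. In B cells it had 11.3, 11.3, 10.5 and 19.8, and in fibroblasts 8.73, 8.38, 9.32 and 14.7. The 18 M value was above the other 3 libraries in each of the 7 classes compared. The 18 M to 2 M ratio of CPM of Rps26 lay 0.41 to 0.84 (log2) over the ratio of the median member of the class. As CPM its 18 M to 2 M ratio was 1.43 (1.41 to 1.45) in T cells, 1.44 (1.42 to 1.47) in B cells, 1.82 (1.68 to 1.97) in fibroblasts and 2.17 (2.07 to 2.29) in NK cells.

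Rpl41, which encodes a very short basic peptide of the large subunit, had 16.9, 15.3, 15.7 and 26.3 UMIs per 1000 member UMIs in T cells in order of age, and 16.1, 15.4, 14.2 and 26.2 in B cells. Its 18 M to 2 M ratio of CPM lay over that of the median member in 7 of 7 classes, by 0.04 (log2) in endothelial cells to 0.80 in B cells. Per 1000 member UMIs the 18 M library did not stand apart in neutrophils, at 31.7 in both NB and 18 M, or in endothelial cells, at 30.8 in 2 M and 30.6 in 18 M. By ratio to 2 M, 13 of 76 members were above the median member in every class of 18 M. Another 13 were below it in every class. Above and below, the counts were 7 and 5 of 76 in NB and 9 and 9 of 77 in 10 M. The classes come from the same libraries, so they are not replicates. Rps28 and Rpl37a, singled out after their values were seen, also had 18 M to 2 M ratios above that of the median member in all 7. The differences were 0.29 to 0.52 and 0.02 to 0.57 (log2).

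Rps26 and Rpl41 were also set side by side in both kinds of 18 M T cells. Rps26 had 5682 CPM in T cells with Y-linked UMIs and no Xist and 5654 CPM in those with Xist and no Y-linked UMI, a ratio of 0.995 (0.977 to 1.01). Rpl41 had 8112 and 8145 CPM, a ratio of 1.004 (0.989 to 1.02). Both genes lie on the minus strand of chromosome 10, Rpl41 at chr10:128548114-128549305 and Rps26 at chr10:128624534-128626747 (GRCm38), 75.2 kb apart with 7 annotated genes in between. Of those, 2 had enough UMIs in T cells and 1 in B cells, looked at after the values of the pair were known. Pa2g4, a growth-regulated nucleolar protein, had ratios of 0.853 (0.771 to 0.945) in T cells and 1.10 (1.01 to 1.204) in B cells, and Erbb3, a receptor tyrosine kinase, had 78 UMIs in 18 M and 24 in 2 M T cells, a ratio of 2.73 (1.71 to 4.52).

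**Figure D4:**
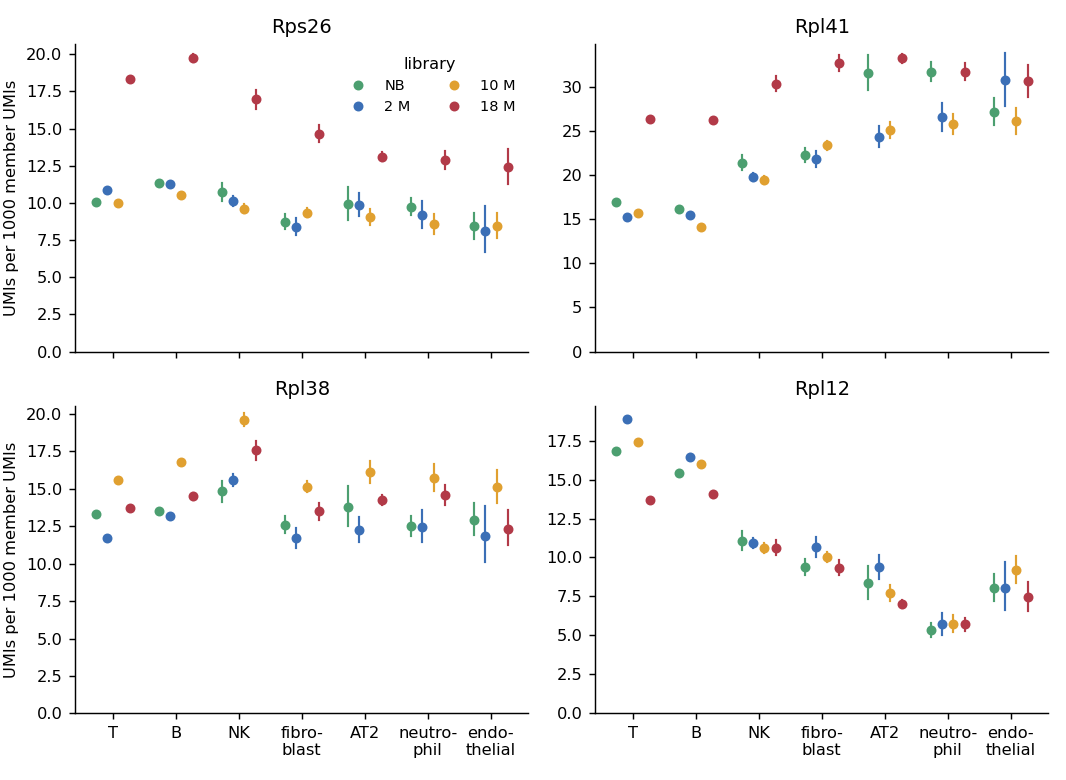
UMIs of 4 members per 1000 member UMIs (y axes) by class (x axes; AT2, alveolar type II cells) and library (colour), with 95% exact counting intervals as lines. Rps26 is highest in 18 M in all 7 classes (18.3 in T cells against 9.99 to 10.9 in the others), Rpl38 is highest in 10 M, and Rpl12 spans 18.9 in 2 M T cells to 5.34 in NB neutrophils.

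Rpl38, a large subunit protein known for its part in the translation of Hox mRNAs, had its highest level in 10 M. It had 13.3, 11.7, 15.6 and 13.7 UMIs per 1000 member UMIs in T cells in order of age, 13.5, 13.1, 16.8 and 14.5 in B cells and 12.6, 11.7, 15.1 and 13.5 in fibroblasts. Its 10 M to 2 M ratio of CPM was 1.30 (1.28 to 1.32) in T cells, 1.37 (1.35 to 1.39) in B cells and 1.41 (1.32 to 1.498) in fibroblasts. This ratio stood 0.30 to 0.40 (log2) over that of the median member and among the 5 highest member ratios in 7 of 7 classes. It passed the limit of 1.5 in endothelial cells alone, where 55 of 77 members did.

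The lowest members in 18 M T cells included the base of the P stalk. Rpl12, which binds beside the stalk, had 5719, 6885, 6179 and 4218 CPM from the youngest library to the oldest, a ratio of 0.613 (0.605 to 0.620) to 2 M. Rplp0, the stalk's base, had 4091, 4844, 4766 and 2988 CPM, a ratio of 0.617 (0.608 to 0.626). Rps7 of the small subunit was at 0.633 (0.624 to 0.641). For both Rpl12 and Rplp0 the 18 M T cells lay under the other 3 libraries. The remaining members past the limit were Rpl10, Rpl13, Rpl14 and Rpl8, at 0.647 to 0.663.

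The tips of the stalk are formed by Rplp1 and Rplp2. Rplp1 had 8977, 10243, 9592 and 8710 CPM in T cells, a ratio of 0.850 (0.842 to 0.858) for 18 M, and Rplp2 had 6002, 6486, 6098 and 6218 CPM, a ratio of 0.959 (0.948 to 0.970). In fibroblasts Rplp0 was at 0.907 (0.843 to 0.976), Rplp1 at 0.918 (0.878 to 0.960) and Rplp2 at 1.22 (1.14 to 1.30). Of the 3 stalk members 0 were above and 3 below 2 M in 18 M T and B cells, 1 of them past the limit, in T cells (4.24% of all genes lower). In NK cells (median 0.41 on the log2 scale) and in neutrophils (0.58) 3 were above and 0 below, and the median member was above 2 M too. Past the limit was 1 of them in neutrophils, where 25.9% of all genes were higher. Rpsa, a small subunit protein that also occurs as a laminin receptor, had 6260, 6046, 6259 and 4689 CPM in T cells and a ratio of 0.776 (0.766 to 0.785) in 18 M, and 0.695 (0.681 to 0.709) in B cells.

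In 18 M B cells Rpl21 was lowest, at 2282 CPM against 3913 in 2 M, a ratio of 0.583 (0.570 to 0.596). Rpl13 followed at 0.617 (0.606 to 0.628) and Rps27 at 0.624 (0.613 to 0.634). The highest were Rps26, Rps27l at 1.43 (1.30 to 1.58) and Rpl41 at 1.40 (1.38 to 1.42). In fibroblasts Rpl10 was lowest, at 0.696 (0.655 to 0.740), followed by Rpl9 at 0.784 (0.735 to 0.836) and Rpl14 at 0.839 (0.762 to 0.925). Rpl41 at 1.56 (1.48 to 1.64) and Rpl37a at 1.40 (1.32 to 1.48) stood next to Rps26 at the upper end.

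In NB and 10 M the members spread less. In NB T cells Rps29 was at 0.771 (0.764 to 0.779) and Rpl31 lower still, and the highest were Rps27l at 1.27, Rps12 at 1.11 and Rpl27 at 1.10. In 10 M T cells, set against the same 2 M cells, Rpl31 at 0.788 and Rps29 at 0.795 were lowest, and Rps27l at 1.28 and Rpl14 at 1.09 followed Rpl38 at the top. NB B cells ranged from Rps15 at 0.886 and Rpl4 at 0.918 to Rpl24 at 1.17 and Rps27l at 1.22. In 10 M B cells Rps28 at 0.907, Rps27 at 0.930 and Rpl35 at 0.935 were lowest, and Rpl3 at 1.17 followed Rpl38 at the top. NB fibroblasts had Rplp0 at 0.888, Rpl31 at 0.920 and Rpl15 at 0.944 at the lower end and Rpl36 at 1.38, Rpl21 at 1.33 and Rpl22 at 1.33 at the upper. In 10 M fibroblasts Rps2 at 1.43 (1.36 to 1.5003) led, before Rpl38 and Rps27l at 1.28, and Rps27 at 0.857, Rpl23a at 0.911 and Rps14 at 0.915 were lowest.

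Cell classes also differed in which members made up the pool. Over NB, 2 M and 10 M together, 77 members had UMIs in all 9 classes compared, and the median member's share of member UMIs varied 1.64-fold between its highest and lowest class. For 18 of 77 the range was over 2-fold. Rps9, a small subunit protein, took 56.6 of 1000 member UMIs in neutrophils and 13.1 to 19.98 in the other 8 classes. Its CPM in neutrophils was 3196, 2847, 3029 and 2561 in order of age, against 4948 to 5304 in T cells, although the members as a whole were several times lower in neutrophils. The 18 M neutrophils had 33.5 Rps9 UMIs per 1000 member UMIs against 51.2 to 61.9 in the other libraries. Rpl12 went the other way, with 17.7 in T cells and 5.54 in neutrophils.

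Rps19, mutated in Diamond-Blackfan anaemia, took 26.5 of 1000 member UMIs in alveolar type II cells, 18.5 in B cells and 8.80 in NK cells, and Rpl21 took 26.9 in alveolar type II cells and 10.1 in alveolar macrophages. These alveolar type II values held in single libraries, with Rps19 at 27.9, 26.8, 26.0 and 30.8 in order of age. The least variable members were Rpl11 (1.26-fold), Rps3 (1.26), Rps21 (1.28), Rpl8 (1.28) and Rpl30 (1.29). Rpl30 lay between 12.3 and 15.8 in the 9 classes.

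**Figure D5:**
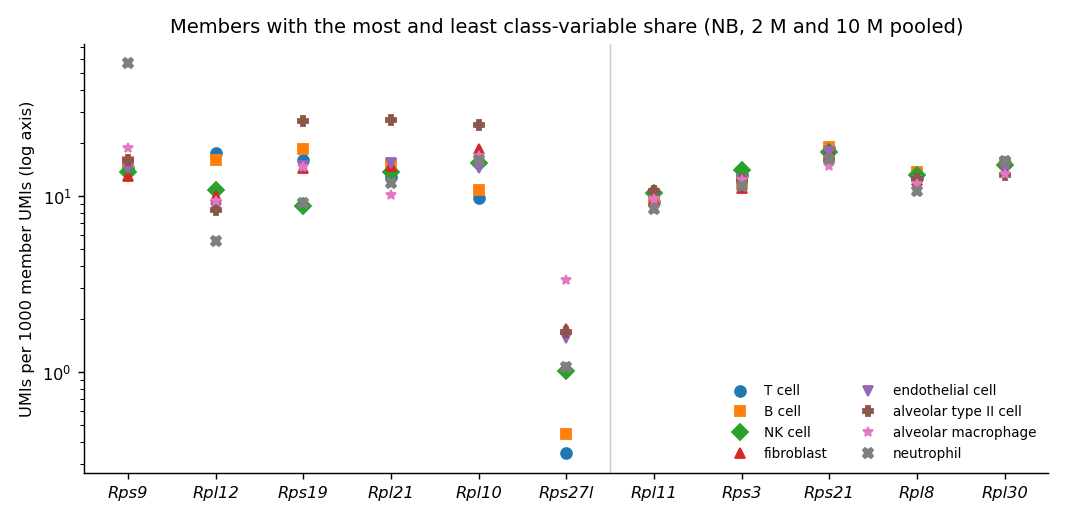
UMIs of single members per 1000 member UMIs (y axis, log scale) in 8 classes (symbols), pooled over NB, 2 M and 10 M, for the 5 most variable members and Rpl10 (left of the line) and the 5 least variable (right). Rps9 stands at 56.6 in neutrophils, Rps19 and Rpl21 at 26.5 and 26.9 in alveolar type II cells, and Rps27l spans 0.345 in T cells to 3.31 in alveolar macrophages.

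The duplicated copies described here had lower levels than their parents. Of 4 such copies compared in T cells of 18 M, 2 were above and 2 below 2 M. Past the limit was 1 each way, where 18.7% of all genes compared were higher and 4.24% lower. Rps27l had 0.345 UMIs per 1000 member UMIs in T cells, 1.76 in fibroblasts and 3.31 in alveolar macrophages. In T cells it had 130 CPM in both NB and 10 M, 102 CPM in 2 M and 168 CPM in 18 M, a ratio of 1.64 (1.51 to 1.79) for 18 M, and it was the 1 member past the limit in the upward direction. Its parent Rps27 had 6127, 7088, 6071 and 5122 CPM in the same cells, a ratio of 0.723 (0.714 to 0.731). In fibroblasts the 18 M ratio of Rps27l was 1.19 (0.981 to 1.45), not distinguishable from 1 at this depth.

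Rpl22l1, the copy of Rpl22 that falls outside the symbols counted, had 953, 1057, 950 and 692 CPM in T cells, while Rpl22 had 2341, 2241, 2274 and 2361 CPM. Rpl3l, known from heart and skeletal muscle, had 68 of its 262 UMIs in neutrophils and 32 in alveolar macrophages, and 0 in fibroblasts. Rpl39l had 125 of 306 UMIs in T cells, 77 of them in 18 M, and 37 of 306 in the 420 cycling cells of all classes. Rpl6l had 188 UMIs in T cells and 133 in B cells of 581. Rpl10l, known from testis, had 0 UMIs in 28153 cells.

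The 4 X-linked members are Rpl10, Rpl39, Rpl36a and Rps4x. In T cells, from the youngest library to the oldest, Rpl10 had 3305, 3509, 3550 and 2312 CPM and Rps4x 4647, 5161, 4899 and 3837 CPM. Rpl39 had 5916, 5735, 5469 and 5069 CPM and Rpl36a 2057, 2150, 2005 and 1956 CPM. All 4 were below 2 M in 18 M T and B cells, with 1 of 4 past the limit, in T cells (4.24% of all genes lower). In NK cells and neutrophils all 4 were above 2 M, with 1 and 2 past the limit, where 8.26% and 25.9% of all genes were higher. Of all members compared, 16 of 77 were higher past the limit in NK cells and 30 of 77 in neutrophils. Between 18 M T cells with Xist and those with Y-linked UMIs, Rpl10 differed by a ratio of 1.02 (0.991 to 1.05), Rpl39 by 0.980 (0.961 to 0.999), Rpl36a by 0.967 (0.937 to 0.997) and Rps4x by 0.949 (0.928 to 0.971). As log2 these were 0.028, -0.029, -0.049 and -0.075. Over all 77 members compared, which include these 4, the same log2 ratio had a median of -0.028 and ran from -0.094 to 0.056. Neither end of this range was one of the 4, and their difference from the other members was not tested.

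Genes that work with the ribosome were described from gene lists, by counts alone. Of 9 measured subunit genes outside the symbols, 8 were below 2 M in 18 M T cells, 3 of them past the limit (4.24% of all genes lower). Their median was -0.33 (log2) beside 0.20 for all genes compared. In B cells 7 of 9 were below, 1 of them past the limit (7.48% of all genes), with a median of -0.42 beside 0.16. Above 2 M were 7 of 8 in alveolar type II cells (median 0.22), 5 of 7 in fibroblasts (0.13), 4 of 7 in NK cells and 3 of 7 in neutrophils. Fau, which encodes the small subunit protein eS30 fused to a ubiquitin-like domain, had 6803, 6353, 6409.8 and 5759 CPM in T cells. Rps3a1 had 4529 CPM in 18 M T cells and 6107 in 2 M, and Gnb2l1, the scaffold protein Rack1, 2554 and 3123. Of the initiation and elongation factors 17 of 34 were above 2 M and 17 below in T cells, with a median of 0.02 beside 0.20 for all genes compared. Their 3 most abundant genes were all lower in 18 M T cells, with log2 ratios of -0.37 for Eef1a1, -0.76 for Eif1 and -0.43 for Eef1b2.

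Ribosome biogenesis genes were lower in 21 of 29 in 18 M T cells, 5 of them past the limit (4.24% of all genes lower). Their median was -0.23 beside 0.20 for all genes. In B cells 18 of 30 were higher, with a median of 0.13 beside 0.16. Npm1 and Ncl, the abundant nucleolar proteins, and Polr1d, a polymerase subunit, had log2 ratios of 0.06, -0.04 and 0.08 in T cells. Of the mTOR, Myc and Larp1 genes 11 of 14 were above 2 M in 18 M T cells, with a median of 0.15 beside 0.20 for all genes, and 9 of 14 in B cells, with a median of 0.36 beside 0.16. Larp1 was at 0.04 in T cells and 0.47 in B cells, Rheb at -0.17 and -0.61, and Myc at 0.69 and -0.16. Among 8 measured other TOP mRNAs 4 were above and 4 below in both classes. Tpt1, an abundant TOP mRNA, had 10693, 13179.7, 12379.7 and 7782 CPM in T cells in order of age, and Naca and Btf3 had log2 ratios of -0.22 and 0.01 in 18 M.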

How the data were processed

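The authors deposited UMI counts per gene and barcode for 4 libraries, 1 per age, which the submitters' processing notes credit to Cell Ranger 3.0.2 and Seurat 2.0, with the mm10 genome, while the matrix header reads 3.1.0. Counts were used as deposited. A barcode was kept if its genes numbered above 200 but below 5000, its UMIs did not exceed 25000 and its mitochondrial share was below 8%. No doublet caller was run, and barcodes with at least 2 markers of a second class stayed without a class, while a single marker of another class was tolerated. UMIs were summed per class and library, which gave shares with exact Clopper-Pearson intervals, CPM with exact Poisson intervals and ratios to 2 M with exact conditional binomial intervals, all at 95%, for classes of at least 20 cells. No age had a replicate, so no test between ages was made. Calculations used scipy 1.17.1 and numpy 2.4.6 with pandas 2.3.3 under Python 3.11.15, drawings matplotlib 3.10.9, and scripts were tested on simulated data.

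Members, lists and markers were chosen with earlier results of these data known. The genes named by rule are the P stalk members and Rpsa, the 5 members highest and the 5 lowest in UMIs, paralogues, X-linked members, the 3 highest and 3 lowest ratios of each comparison in T cells, B cells and fibroblasts, the 5 most and 5 least variable between classes and the 3 most abundant genes of each other list. Some genes that this rule names are not reported here. The depth bins, the pairs of classes, the start regions and motifs, the order of members over classes and the split of 18 M members by Xist were added after values were seen. Gene positions are from GENCODE vM21 (GRCm38) and start regions from RefSeq (GRCm38.p6). Alternatives changed the cell limits, the gates, the total, the summary over cells, the depth, the fold limit, the UMI minimum and the reference library.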

Additional observations from a re-analysis of the deposited data

Results flagged for a closer look

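The log2 ratio of the member share to 2 M went in opposite directions in different classes, and the differences between classes were not tested. For 18 M it was -0.24 in T cells and -0.28 in B cells, and 0.37 in NK cells, 0.46 in neutrophils and 0.57 in endothelial cells. The neutrophil ratio turned sign without any marker of another class, and the median neutrophil had 3.06% in 18 M and 3.77% in 2 M. The endothelial ratio rested on 31 shallow cells in 2 M and turned sign against 10 M. For NB it was -0.21 in alveolar type II cells, from 22 cells, and 0.71 in endothelial cells.

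Barcodes outside the cell limits, which the comparisons left out, also held member UMIs, at 6.46%, 6.65%, 4.86% and 7.46% of their UMIs from the youngest library to the oldest. Haemoglobin took 43.8% to 63.3% of the UMIs of these barcodes. The 16 symbols of ribosomal protein genes with a pseudogene suffix, which were not members, together had 153, 167, 165 and 162 CPM over all kept cells in the same order.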

How the results depend on the processing

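No paired analysis was possible because each age had 1 library. The cause of each change below was not tested. The log2 ratios of the share that turned sign were, in 10 M T cells, 0.0012 without any marker of another class (-0.04 as reported), in 18 M fibroblasts -0.042 with at least 3 markers and -0.064 against 10 M (0.05), in NB neutrophils 0.034 with at least 3 markers (-0.11), in 10 M neutrophils -0.074 without other markers, -0.010 as a mean over cells, -0.0098 at 2000 to 8000 UMIs and -0.019 under 8000 UMIs (0.06), in 18 M neutrophils -0.26 without other markers (0.46) and in 18 M endothelial cells -0.12 against 10 M (0.57). Against a total without members, mitochondrial and haemoglobin genes Rpl41 turned to -0.017 in NB T cells and 0.0038 in 10 M B cells, and as a mean over cells the median member in 18 M fibroblasts turned to -0.027.

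Values that kept their sign but moved beyond their counting interval were, without upper cell limits, -0.030 and -0.082 in all NB and 10 M cells, -0.041 in 10 M T cells, 0.090 and 0.10 in NB and 10 M B cells and 0.20, 0.13 and 0.033 in NB, 10 M and 18 M fibroblasts. With at least 1000 UMIs, 18 M cells had -0.40. With at least 3 markers NB and 10 M T cells had -0.099 and -0.045. Without other markers NB and 18 M T cells had -0.068 and -0.24, NB and 18 M B cells 0.091 and -0.31 and NB and 10 M fibroblasts 0.26 and 0.15, while 16 fibroblasts were left in 18 M, too few for a value. Without mitochondrial and haemoglobin genes in the total, all 10 M and 18 M cells had -0.099 and -0.33, 18 M T cells -0.23, and 10 M and 18 M B cells 0.090 and -0.26. As a mean over cells, all NB, 10 M and 18 M cells had -0.061, -0.055 and -0.37, NB and 10 M T cells -0.15 and -0.088, 18 M B cells -0.34, and 10 M and 18 M fibroblasts 0.20 and 0.017. At 2000 to 8000 UMIs all NB, 10 M and 18 M cells had -0.062, -0.044 and -0.26, NB, 10 M and 18 M T cells -0.13, -0.079 and -0.20, NB and 18 M B cells 0.080 and -0.28, and NB and 10 M fibroblasts 0.16 and 0.22. With Y-linked and no Xist UMIs all 18 M cells had -0.32, T cells -0.23 and B cells -0.26. Against 10 M, an alternative chosen after seeing the data like the limit of 8000 UMIs in neutrophils, they had -0.30, -0.20 and -0.38.

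Of the counts of members past the limit, the lower ones in 18 M, 7 each in T and B cells, numbered 17 in T cells and 16 in B cells against the total without members, 16 in B cells as a mean over cells, and 21 in B cells and 1 in fibroblasts against 10 M. Fibroblast counts as a mean over cells were 2 lower in 18 M and 1 higher in 10 M, and against 10 M 1 was higher in 18 M. With at least 30 UMIs 1 was higher in NB T cells and 2 in 18 M T cells. With a 2-fold limit, 0 members passed in NB T cells, 18 M T and B cells and 18 M fibroblasts. The share of all genes past the limit under these alternatives is not given here, so the counts have no background beside them.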
